A study of Rattus norvegicus with 21 samples.

Results

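Livers of rats given 489.2 mg/kg of 2-ethylhexyl diphenyl phosphate were compared with livers of rats given 244.6 mg/kg, across 14218 genes. The comparison took the 3 arrays whose titles name each of these doses, 6 of the 21 arrays of the study. The compound, a phosphate ester that serves in plastics both to soften them and to slow burning, is abbreviated EHDP in the study's text and EDHP on its samples. Male Harlan Sprague Dawley rats received it in corn oil by oral gavage once a day for 4 days, and liver was taken on day 5. By the labels' molar equivalents both doses were 0.675 and 1.35 mmol/kg, so the second is a doubling of the first. The 6 vehicle arrays, of rats given corn oil alone, and the 3 arrays at 978.5 mg/kg are used below to place the levels. The protocol names 5 vehicle rats, whereas 6 arrays carry the dose 0. No transgene, deletion or second agent is named for any group, so the dose and the individual rats are all that the labels say differed.

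In the adult liver most hepatocytes are quiescent. Cells that enter division first switch on genes of DNA synthesis, many of them through E2F factors, and later genes of mitosis, many of them through promoter elements that pair a CCAAT box with a cell cycle genes homology region. Liver also carries large programmes for xenobiotic metabolism, lipid handling, protein quality control and daily rhythm, which can change without any cell dividing.

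Signals are log2 values from robust multi-array averaging (RMA), in which 1 unit is a factor of 2. Differences are 489.2 minus 244.6 mg/kg, with standard errors (SE) from limma, 3 arrays against 3. A gene is said to rise or fall where its Benjamini-Hochberg adjusted p over all genes was under 0.05. Array medians over the 21 arrays ran from 6.33 to 6.41, and the median SD between arrays of a dose was 0.101 at 244.6 mg/kg and 0.122 at 489.2 mg/kg. Averaged over its correlations with all other arrays, vehicle replicate 6 was lowest, at 0.987. The hepatocyte marker Ahsg, which encodes the plasma protein fetuin-A, stood at 14.48 to 14.71 on the 6 arrays. Levels of this kind are relative within a gene, so none is set against another gene's. In whole liver, fewer cells of a type and less RNA per cell cannot be told apart.

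At the higher dose 242 genes (1.7%) differed, and the falls far outnumbered the rises. Transcripts of 213 genes (1.5%) fell and those of 29 (0.204%) rose. Of the falls 89 (0.626%) were at least 2-fold, as were 5 of the rises (0.0352%). The 3 arrays of one dose lay wholly below or above those of the other in each of the 242 genes, compared with 9.14% of all genes wholly below and 9.76% wholly above. These genes were picked on the same arrays, so that contrast gives no support. The median difference over all genes was 0.02. Genes of cell division made up a large group of the falls. The mitosis list held 58 of them (27.2%), the list of DNA replication and S phase 21 (9.9%) and a list of G1 control and cell cycle inhibitors 5 (2.3%). A further 56 (26.3%) encode other division proteins and were gathered after their values were seen, so they describe the falls and support nothing. The other 73 falls (34.3%) lay outside these lists, and 0 of the 29 rises lay in the mitosis or replication list.

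The number of differing genes depended on which arrays were in the fit. It was 41 without 244.6 mg/kg replicate 1, 59 without 244.6 mg/kg replicate 2, 69 without 489.2 mg/kg replicate 1 and 117 without 489.2 mg/kg replicate 3. Without 244.6 mg/kg replicate 3 it was 219, and without 489.2 mg/kg replicate 2 it was 339. In each of these fits all 242 differences kept their sign. Since the arrays of both doses did not overlap in these genes, that outcome was fixed in advance and supports nothing. Without vehicle replicate 6, which enters only through the shared estimate of the spread, the number was 263.

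**Figure D1:**
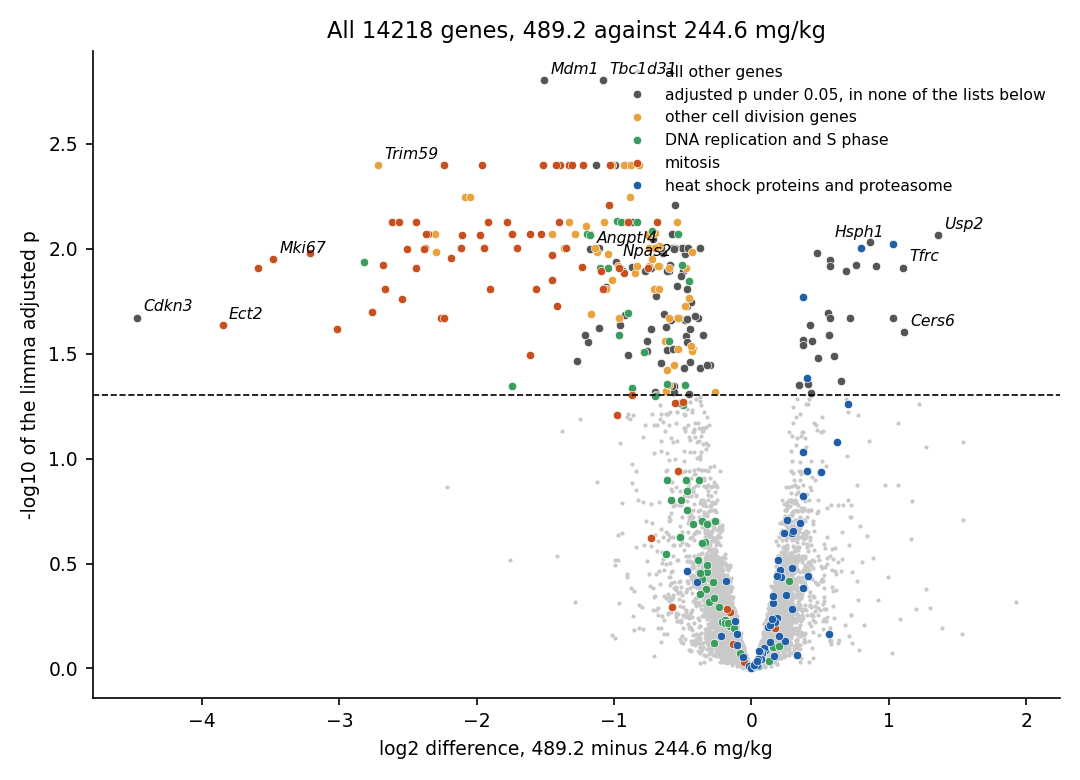
Each point is 1 of 14218 genes, with the log2 difference between 489.2 and 244.6 mg/kg on the horizontal axis and -log10 of the limma adjusted p on the vertical axis; the dashed line marks an adjusted p of 0.05. Above the line 213 genes lie to the left and 29 to the right, and the far left, down to Cdkn3 at -4.48, holds many genes of the mitosis list.

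The widest difference was that of Cdkn3, a phosphatase that acts on cyclin-dependent kinases. Its signal was 10.66, 10.29 and 9.46 at 244.6 mg/kg and 4.85, 7.46 and 4.66 at 489.2 mg/kg. All 3 arrays of the lower dose were high, and replicate 2 stood above the other two at the higher dose, with no overlap between the doses. The vehicle arrays ran from 5.31 to 8.0 with a median of 7.02, so the 244.6 mg/kg arrays lay above all of them. Cdkn3 was 22.2-fold lower at 489.2 mg/kg (-4.48 ± 1.01, SE, limma adjusted p = 0.0213).

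Genes of the mitotic engine moved in the same way. Cdk1, the kinase that drives entry into mitosis, stood at 9.61, 9.52 and 8.30 at 244.6 mg/kg and at 5.74, 6.81 and 5.83 at 489.2 mg/kg. The doses did not overlap, replicate 3 was the lowest at 244.6 mg/kg and replicate 2 the highest at 489.2 mg/kg. Vehicle arrays ran from 5.17 to 7.16 (median 6.36), below the lower dose throughout. Cdk1 fell by 3.02 ± 0.69 (SE, limma adjusted p = 0.0242). Its partner cyclin Ccnb1 stood at 8.64, 8.30 and 7.41 against 5.00, 5.97 and 5.10, with vehicle arrays between 4.78 and 6.45 (median 5.70). The order of the arrays was that of Cdk1, and Ccnb1 fell by 2.76 ± 0.61 (SE, limma adjusted p = 0.0200). The other cyclins of this stage fell further, Ccna2 by 3.59 ± 0.74 (SE, limma adjusted p = 0.0123) and Ccnb2 by 3.21 ± 0.64 (SE, limma adjusted p = 0.0105). Ect2, which is needed for cytokinesis, had the widest difference of the mitosis list and fell by 3.85 ± 0.88 (SE, limma adjusted p = 0.0231).

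The proliferation marker Mki67, whose protein coats mitotic chromosomes, stood at 8.79, 8.30 and 7.47 at 244.6 mg/kg and at 4.17, 5.73 and 4.21 at 489.2 mg/kg. Vehicle arrays ran from 4.45 to 6.31 with a median of 5.43. The 244.6 mg/kg arrays were above every vehicle array, whereas those at 489.2 mg/kg lay in or below the vehicle range. Mki67 fell by 3.48 ± 0.70 (SE, 11.2-fold, limma adjusted p = 0.0112). Top2a, the topoisomerase that untangles sister chromosomes, stood at 9.21, 9.65 and 8.06 against 6.14, 6.96 and 5.77, with vehicle arrays from 5.96 to 7.27 (median 6.58). The doses again did not overlap, and Top2a fell by 2.68 ± 0.54 (SE, limma adjusted p = 0.0120). Low signals bound some of these falls, since 27 falling genes, 13 of them in the mitosis list, had a 489.2 mg/kg mean under 4.75, the 20th percentile of all values.

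**Figure D2:**
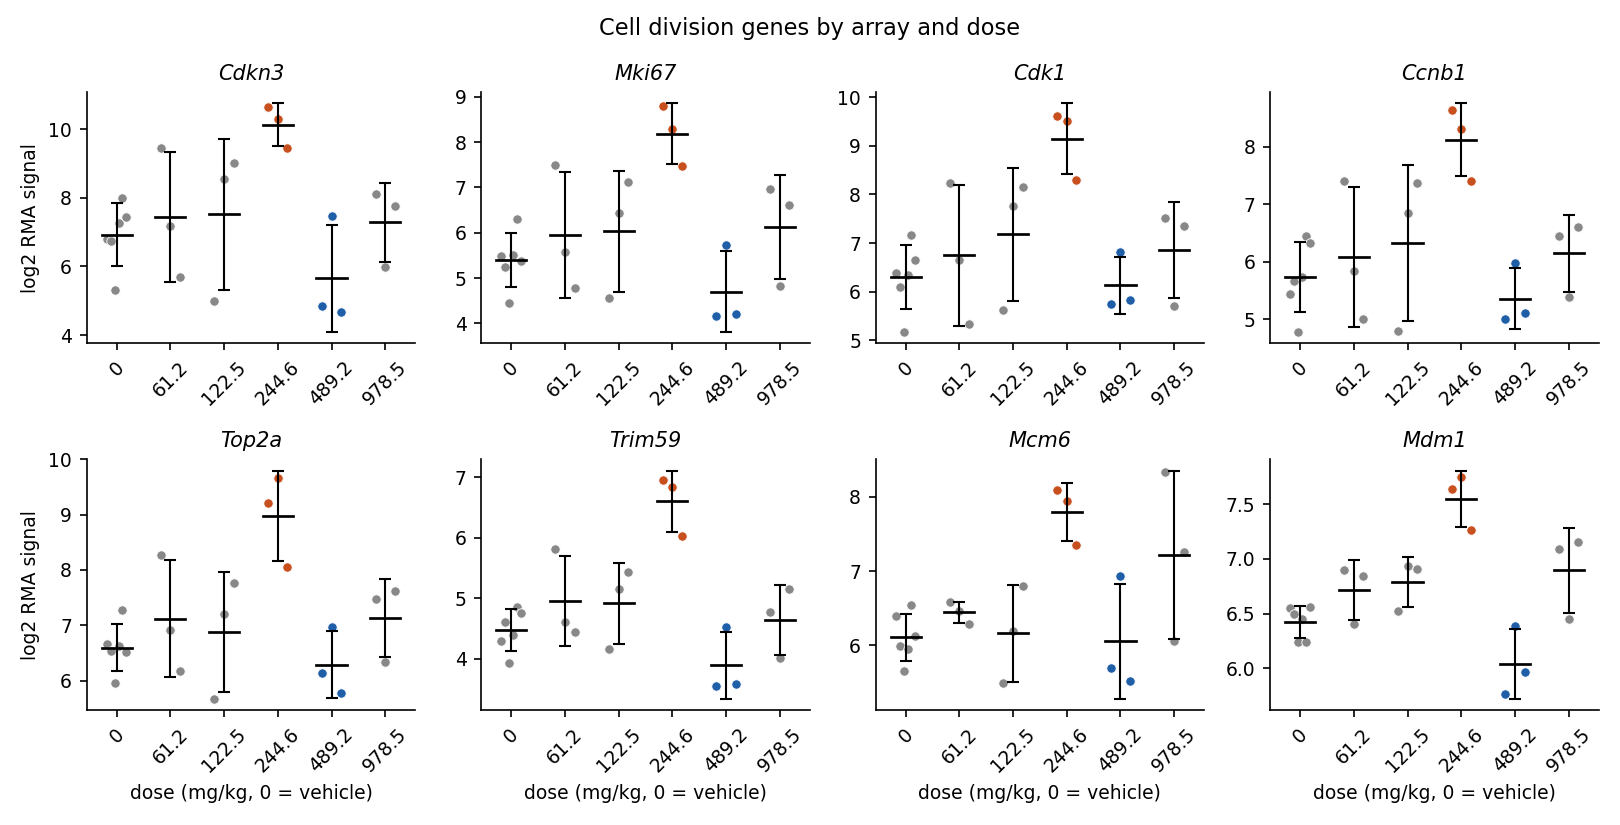
Log2 RMA signal of 8 division genes on each array at 6 doses, with points for arrays, long bars for means and whiskers for 1 SD (n = 6 vehicle arrays, 3 at each dose). In each panel the 3 arrays at 244.6 mg/kg lie above the 3 at 489.2 mg/kg, and the Mki67 mean was 8.19 at 244.6, 4.70 at 489.2 and 6.13 at 978.5 mg/kg.

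Promoters of 4 of these genes are shown because they carry the elements that mitotic genes are known for. The 150 bases before the start site are given from RefSeq (GRCr8), with TTTGAA, the core of the cell cycle genes homology region, and CCAAT in capitals on either strand. They are Cdk1 at chr20:19265143-19265292 (plus strand), Cdc20, which activates the anaphase-promoting complex, at chr5:137255800-137255949 (minus), Mki67 at chr1:199952594-199952743 (minus) and Top2a at chr10:84473094-84473243 (minus).
Cdk1: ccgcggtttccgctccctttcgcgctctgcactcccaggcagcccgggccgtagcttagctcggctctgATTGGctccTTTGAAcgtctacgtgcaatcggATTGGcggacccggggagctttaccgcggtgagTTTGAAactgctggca
Cdc20: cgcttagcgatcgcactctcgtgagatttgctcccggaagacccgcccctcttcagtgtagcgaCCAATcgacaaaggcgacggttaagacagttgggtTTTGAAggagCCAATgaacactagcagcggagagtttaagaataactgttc
Mki67: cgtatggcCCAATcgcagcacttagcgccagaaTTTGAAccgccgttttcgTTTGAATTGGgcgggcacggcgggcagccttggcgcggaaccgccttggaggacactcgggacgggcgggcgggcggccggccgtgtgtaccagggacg
Top2a: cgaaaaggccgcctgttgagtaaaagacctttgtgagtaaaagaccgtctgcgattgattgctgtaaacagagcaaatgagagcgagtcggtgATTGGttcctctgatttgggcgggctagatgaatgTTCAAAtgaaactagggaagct
Each window held both motifs, with 2 matches of TTTGAA in Cdk1 and Mki67 and 1 in Cdc20 and Top2a. In Mki67 a TTTGAA and a reversed CCAAT overlap. Over the 250 bases before the start, TTTGAA was found in 27 of the 62 mitosis list genes with a promoter entry (43.5%), compared with 10.9% of 11701 tested genes with an entry. Both motifs together were found in 40.3% of the mitosis list and 4.0% of the tested genes. Among falls outside the division lists the share with both was 4.8% (3 of 62). These are letter matches and not binding sites.

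As a group, 58 of the 74 measured mitosis genes fell and 0 rose, compared with 1.5% and 0.204% of all genes. Their median difference was -1.49, and in 66 the doses did not overlap (9.14% of all genes lay wholly below). Members that did not pass included Cdca8 (-0.98, limma adjusted p = 0.0622) of the chromosomal passenger complex and Cenpe (-0.73, limma adjusted p = 0.239), a kinetochore motor. The list's mean relative to vehicle was 1.65, 1.54 and 0.91 on the 244.6 mg/kg arrays, and -0.29, 0.14 and -0.39 on those at 489.2 mg/kg. The vehicle arrays spanned -0.37 to 0.39, so the higher dose sat within the vehicle range but for replicate 3. The count of falling members was 10 without 244.6 mg/kg replicate 1, 17 without its replicate 2, 23 without 489.2 mg/kg replicate 1 and 29 without its replicate 3. The list median in these 4 fits ran from -1.45 to -1.36.

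Comparisons with the vehicle share arrays with the comparison above, so they are given only to place the levels. At 244.6 mg/kg 420 genes (2.95%) differed from the vehicle and at 489.2 mg/kg 412 (2.9%). The first count was 112 without 244.6 mg/kg replicate 1 and 230 without its replicate 2, and the second 157 without 489.2 mg/kg replicate 1 and 251 without its replicate 3. Of the mitosis genes, 62 rose against the vehicle at 244.6 mg/kg (2.52% of all genes rose), with a median of 1.41. At 489.2 mg/kg limma called 0 of them, with 1 higher and 3 lower at an unadjusted p under 0.05 and a median of -0.15. A test of the difference between the step described here and the next doubling, from 489.2 to 978.5 mg/kg, also shares arrays with the comparison above. It gives no separate support. By this test the change differed between both steps in 132 genes (0.928%). Of the mitosis list 16 genes were among them, each with a lower value for the step from 244.6 mg/kg (0.809% of all genes). They included Pttg1, the securin that holds back chromosome separation (second difference -2.37, limma adjusted p = 0.0328), while Mki67 did not pass (-4.91, limma adjusted p = 0.0593). That count of 132 was 3 without 489.2 mg/kg replicate 1, 5 without 244.6 mg/kg replicate 2, 7 without 978.5 mg/kg replicate 3, 9 without 489.2 mg/kg replicate 3, 13 without 244.6 mg/kg replicate 1 and 25 without 978.5 mg/kg replicate 1. It was 224 without 489.2 mg/kg replicate 2 and 325 without 978.5 mg/kg replicate 2.

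Of 66 measured genes of DNA replication and S phase, 21 fell (1.5% of all genes did) and 0 rose (1 higher at an unadjusted p under 0.05). The median was -0.41, and 48 did not overlap (9.14% of all genes lay wholly below). The count of falls was 0 without 244.6 mg/kg replicate 1, 6 without its replicate 2, 4 without 489.2 mg/kg replicate 1 and 9 without its replicate 3, while the median stayed between -0.41 and -0.39. Pclaf, a partner of the sliding clamp PCNA, had the widest difference and fell by 2.82 ± 0.57 (SE, limma adjusted p = 0.0116). Mcm6, a subunit of the replicative helicase, stood at 8.09, 7.94 and 7.35 at 244.6 mg/kg and at 5.70, 6.94 and 5.52 at 489.2 mg/kg. Replicate 2 was again the highest array of the higher dose, and vehicle arrays ran from 5.66 to 6.54 (median 6.06). Mcm6 fell by 1.74 ± 0.44 (SE, limma adjusted p = 0.0453), close to the threshold. Rrm1, the large subunit of ribonucleotide reductase, fell by 1.17 ± 0.22 (SE, limma adjusted p = 0.00858). The histone methyltransferase gene Ezh2 fell by 1.20 ± 0.22 (SE, limma adjusted p = 0.00848), with another of its probe sets at 0.05 and their mean at -0.49. Mcm5, another helicase subunit, did not pass (-0.51, limma adjusted p = 0.158).

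The promoter of Mcm6 is shown for the E2F site that marks part of this list, searched as TTTGGCGC or TTTCCCGC on both strands and given in capitals. The 150 bases lie at chr13:42404353-42404502 on the minus strand of GRCr8 (RefSeq).
Mcm6: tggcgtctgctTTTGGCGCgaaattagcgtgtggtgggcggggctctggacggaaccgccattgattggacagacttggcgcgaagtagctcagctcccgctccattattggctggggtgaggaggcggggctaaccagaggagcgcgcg
The site was found before the start of 13 of the 57 replication genes with an entry (22.8%) and of 2.1% of tested genes. TTTGAA was found in 8.8% of the replication list.

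Some of the smallest adjusted p belonged to genes outside the mitosis and replication lists, among them Trim59, one of the 56 gathered division genes, and Mdm1 and Tbc1d31, both counted in the 73 other falls. Trim59, a tripartite motif protein of the ubiquitin ligase family, stood at 6.95, 6.85 and 6.03 at 244.6 mg/kg and at 3.55, 4.53 and 3.59 at 489.2 mg/kg. Vehicle arrays ran from 3.93 to 4.86 (median 4.5), below all 3 arrays of the lower dose. It fell by 2.72 ± 0.39 (SE, limma adjusted p = 0.00400). Mdm1, a microtubule-binding protein of centrioles, stood at 7.64, 7.75 and 7.26 against 5.76, 6.39 and 5.97, with vehicle arrays from 6.24 to 6.56 (median 6.47). All 244.6 mg/kg arrays lay above the vehicle, and 2 of 3 at 489.2 mg/kg lay below it. Mdm1 fell by 1.51 ± 0.19 (SE, limma adjusted p = 0.00157). Tbc1d31, a protein of centriolar satellites, stood at 7.88, 7.75 and 7.76 against 6.77, 6.75 and 6.62, with little spread inside either dose. Its vehicle arrays ran from 6.73 to 7.03 (median 6.96), and it fell by 1.08 ± 0.14 (SE, limma adjusted p = 0.00157). Also among the 15 widest falls outside the mitosis and replication lists were Fam111a (-2.09), Shcbp1 (-2.05), Arhgap11a (-2.30), Tcf19 (-2.30), Plk4 (-1.28), the kinase of centriole duplication, and Mybl1 (-1.20), a MYB family transcription factor. Plk4 did not pass, at -0.42, with low signals raised to the 20th percentile (limma adjusted p = 0.0865).

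Among regulators of G1, 5 of 25 genes fell (1.5% of all genes did) and 0 rose (0 at an unadjusted p under 0.05), with a median of -0.27. They were Cdkn3, Cdkn1a, Rbl1, Ccng2 and Cdkn2c, and the count was 0 without 244.6 mg/kg replicate 1 or 2 or 489.2 mg/kg replicate 1 or 3. Cdkn1a, the p21 inhibitor of cyclin-dependent kinases and a p53 target, differed from the others in its place relative to the vehicle. It stood at 9.60, 9.60 and 9.07 at 244.6 mg/kg and at 8.33, 8.42 and 7.95 at 489.2 mg/kg, with vehicle arrays from 9.56 to 11.06 (median 10.01). All arrays of the higher dose lay below every vehicle array. Cdkn1a fell by 1.19 ± 0.28 (SE, limma adjusted p = 0.0277), and against the vehicle the difference was -0.68 at 244.6 mg/kg (limma adjusted p = 0.168) and -1.87 at 489.2 mg/kg (limma adjusted p = 0.000200), where 1.39% of all genes fell. Between the doses Cdkn1a did not pass in the mean of its probe sets or with low signals raised to the 20th percentile. Its difference ran from -1.36 to -0.84 over the alternatives. Of the 20 p53 targets, Cdkn1a was the only one to pass (1.7% of all genes passed, median of the list -0.04), and Mdm2, which ubiquitinates p53, had 0.22 (limma adjusted p = 0.432).

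**Figure D3:**
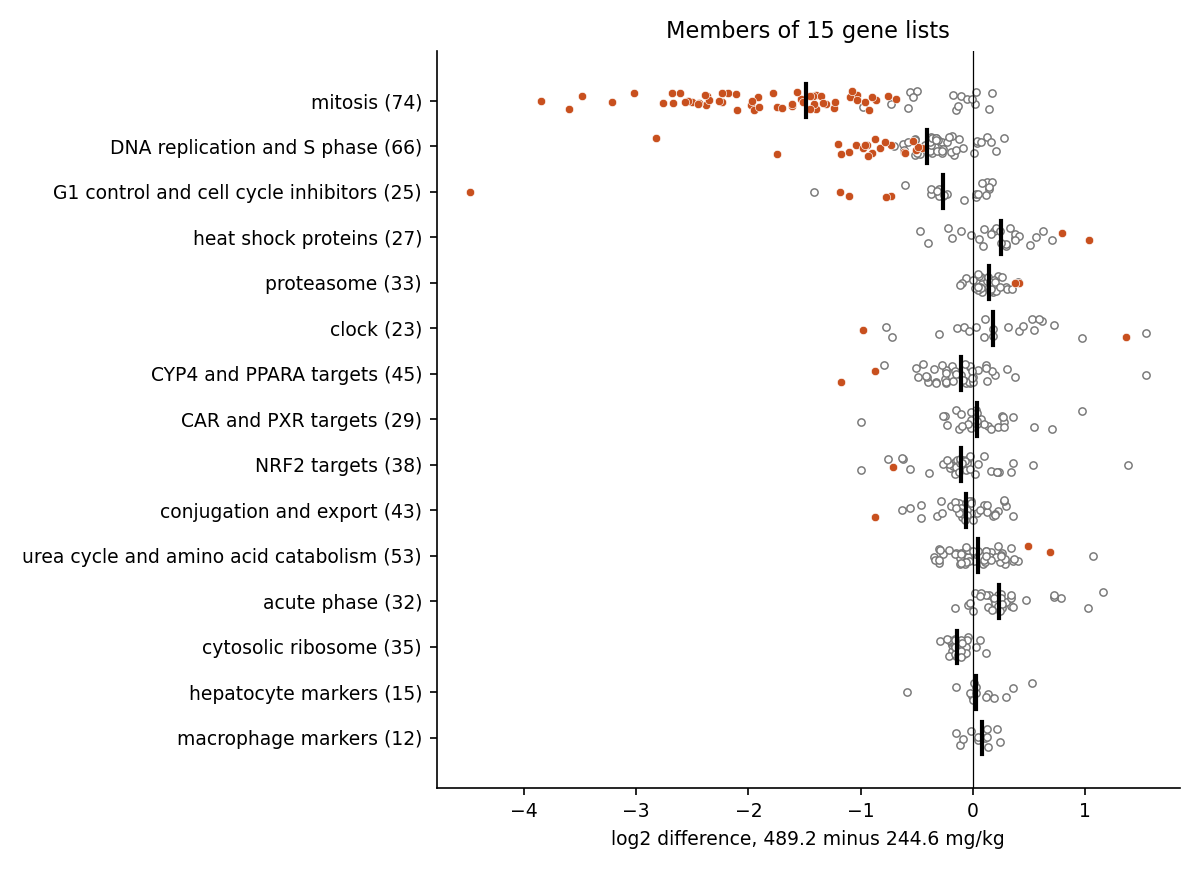
Log2 difference between 489.2 and 244.6 mg/kg for each measured member of 15 gene lists, with the number of members in parentheses; filled points passed an adjusted p of 0.05 and vertical bars are list medians. The mitosis list lies mostly left of 0 (median -1.49), whereas the medians of the heat shock and acute phase lists lie at 0.25 and 0.23.

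Beyond division, 3 named genes of lipid handling fell. Angptl4, a secreted inhibitor of lipoprotein lipase and a PPARA target, stood at 10.43, 10.89 and 10.49 at 244.6 mg/kg and at 9.39, 9.93 and 8.98 at 489.2 mg/kg. Vehicle arrays ran from 10.98 to 11.98 (median 11.33), so both doses lay below the vehicle and the higher one further. Between the doses Angptl4 fell by 1.17 ± 0.23 (SE, limma adjusted p = 0.0100). Plin2, the coat protein of lipid droplets, stood at 12.89, 12.67 and 12.56 against 11.85, 12.09 and 11.57, with vehicle arrays from 12.72 to 13.40 (median 13). The lower dose overlapped the vehicle, and the higher dose lay below both. Plin2 fell by 0.87 ± 0.16 (SE, limma adjusted p = 0.00747), and by 0.56 in the mean of its probe sets. They were the 2 of 45 CYP4 and PPARA genes that fell (1.5% of all genes did), 0 rose (2 at an unadjusted p under 0.05), and the list median was -0.11. Cyp4a8, a fatty acid hydroxylase of that list, was higher without passing (1.54, limma adjusted p = 0.0835), and Cyp4a1 had -0.40 (limma adjusted p = 0.685). Elovl2, an elongase of polyunsaturated fatty acids, stood at 10.71, 10.30 and 10.43 against 9.82, 9.62 and 10.02, with vehicle arrays from 9.96 to 10.63 (median 10.28). The doses did not overlap, and 1 array of the lower dose lay above the vehicle range. Elovl2 fell by 0.66 ± 0.16 (SE, limma adjusted p = 0.0349), the only one of 35 genes of fatty acid and triglyceride synthesis to pass (1.7% of all genes passed). Scd, the delta-9 desaturase, had a wider difference that did not pass (-2.22 ± 0.68, SE, limma adjusted p = 0.136). Scd signals were 10.22, 11.61 and 11.73 at the lower dose and 7.54, 10.00 and 9.37 at the higher.

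A pair of further falls were among the widest outside division. Sytl2, an effector of the vesicle GTPase Rab27, stood at 7.18, 7.77 and 7.26 at 244.6 mg/kg and at 5.70, 5.89 and 6.62 at 489.2 mg/kg, with vehicle arrays from 6.70 to 7.31 (median 7.10). The higher dose lay below every vehicle array, and Sytl2 fell by 1.33 ± 0.21 (SE, limma adjusted p = 0.00400). Rab27a itself, looked up after its value was seen, fell by 0.58 ± 0.14 (SE, limma adjusted p = 0.0453), with another probe set at 0.07. Olr59, an olfactory receptor gene, stood at 8.92, 8.36 and 8.63 against 7.69, 7.78 and 6.63, with vehicle arrays from 8.38 to 9.33 (median 9.09). The higher dose again lay below the vehicle, and Olr59 fell by 1.27 ± 0.31 (SE, limma adjusted p = 0.0341). The count of falls outside the division lists was 73, and it was 16 without 244.6 mg/kg replicate 1, 19 without its replicate 2, 18 without 489.2 mg/kg replicate 1, 41 without its replicate 3 and 124 without its replicate 2.

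Genes of xenobiotic metabolism are given next by list, where 1.7% of all genes passed between the doses. Of 29 targets of the receptors CAR and PXR limma called 0, and their median was 0.04. At an unadjusted p under 0.05, 2 of them were higher and 0 lower (4.8% and 6.79% of all genes). Against the vehicle 11 of them rose at 244.6 mg/kg and 14 at 489.2 mg/kg (2.52% and 1.51% of all genes). Ces2c, a carboxylesterase, differed by 0.54 ± 0.30 (SE, limma adjusted p = 0.519) between doses and by 2.78 and 3.32 from the vehicle. Abcc3, an efflux pump for conjugates, differed by 0.35 ± 0.34 (SE, limma adjusted p = 0.773), and Cyp3a9 by -0.02 ± 0.43 (SE, limma adjusted p = 0.996). Gsta3, a glutathione transferase, had -0.64 ± 0.27 (SE, limma adjusted p = 0.341). These values do not show that the doses acted alike. Cyp1a1, the best known target of the aryl hydrocarbon receptor, stood at 7.00, 5.92 and 6.26 against 8.61, 6.40 and 7.99, overlapping between doses (1.27 ± 0.36, SE, limma adjusted p = 0.0884).

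Ugt2b7, a glucuronosyltransferase, was the only one of 43 conjugation and export genes to pass, where 1.7% of all genes passed. It stood at 6.51, 5.99 and 6.07 at 244.6 mg/kg and at 5.23, 5.58 and 5.15 at 489.2 mg/kg, with vehicle arrays from 4.92 to 5.45 (median 5.19). The lower dose lay above the vehicle and the higher dose near it, and Ugt2b7 fell by 0.87 ± 0.18 (SE, limma adjusted p = 0.0122). Tkt, the transketolase of the pentose phosphate pathway, was the only one of 38 NRF2 targets to pass, again where 1.7% of all genes passed. Tkt stood at 12.14, 12.14 and 12.06 against 11.03, 11.65 and 11.52, with vehicle arrays from 11.19 to 11.58 (median 11.42). All arrays of the lower dose lay above the vehicle, while those of the higher dose lay below, above and within its range. Tkt fell by 0.72 ± 0.14 (SE, limma adjusted p = 0.00902), while the NRF2 list as a whole had a median of -0.11.

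Usp2, a deubiquitinase whose transcript follows the circadian clock, had the widest rise. It stood at 7.16, 6.57 and 7.08 at 244.6 mg/kg and at 8.35, 8.36 and 8.18 at 489.2 mg/kg, with vehicle arrays from 6.24 to 7.35 (median 6.91). The higher dose lay above all other arrays of these groups, and the rise was 1.36 ± 0.25 (SE, 2.56-fold, limma adjusted p = 0.00858). Npas2, which pairs with BMAL1 as a clock activator, stood at 7.74, 8.61 and 8.07 against 7.5, 6.93 and 7.03, with vehicle arrays from 8.77 to 9.11 (median 8.97). Both doses lay below the vehicle, the higher one further, and Npas2 fell by 0.98 ± 0.20 (SE, limma adjusted p = 0.0116). Of 23 clock genes these were the 2 that passed (1.7% of all genes did), and the list median was 0.18. The activator Bmal1 had -0.78 (limma adjusted p = 0.0695). The output gene Dbp stood at 6.63, 6.11 and 8.01 against 6.79, 9.34 and 9.24, which overlap (1.54, limma adjusted p = 0.197). Clock transcripts vary with the hour of death, which was not used here, and the part of that hour in these differences was not tested.

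Among the cytosolic heat shock genes, Hsph1 and Chordc1 rose. Hsph1, the HSP110 exchange factor of HSP70, stood at 9.74, 9.40 and 9.40 at 244.6 mg/kg and at 10.76, 10.34 and 10.54 at 489.2 mg/kg, with vehicle arrays from 9.05 to 10.08 (median 9.82). The higher dose lay above the lower dose and the vehicle on every array. The rise was 1.03 ± 0.20 (SE, 2.05-fold, limma adjusted p = 0.00943), and the other probe set of the gene gave 1.04. Chordc1, a partner of HSP90, stood at 9.54, 9.36 and 9.41 against 10.47, 9.95 and 10.28, with vehicle arrays from 9.17 to 9.71 (median 9.49). The higher dose was again above both, and the rise was 0.80 ± 0.15 (SE, limma adjusted p = 0.00992). Dnajb1, an HSP40, did not pass (0.70 ± 0.18, SE, limma adjusted p = 0.0549), nor did the adaptor Stip1 (0.62 ± 0.17, SE, limma adjusted p = 0.0835).

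Of 27 heat shock genes 2 rose (0.204% of all genes did), 0 fell (3 lower at an unadjusted p under 0.05), 21 were above 0 and the median was 0.25. The count was 0 without 244.6 mg/kg replicate 2 or 489.2 mg/kg replicate 1, and 4 without 489.2 mg/kg replicate 2. In the test between both dose steps, which shares the arrays of both doses, 3 members were higher, compared with 0.12% of all genes (17). That total over all genes was 0 with low signals raised to the 20th percentile, with only the arrays compared, and without 244.6 mg/kg replicate 1 or 2, 489.2 mg/kg replicate 1 or 3 or 978.5 mg/kg replicate 3. The promoter of Hsph1 is shown for a form of the heat shock element, searched as GAANNTTC (the same on both strands) and given in capitals. The 150 bases lie at chr12:10427218-10427367 on the plus strand of GRCr8 (RefSeq).
Hsph1: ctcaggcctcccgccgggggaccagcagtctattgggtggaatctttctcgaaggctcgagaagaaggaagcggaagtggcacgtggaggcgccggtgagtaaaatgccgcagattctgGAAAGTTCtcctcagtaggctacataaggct
The element was found in 13 of the 23 heat shock genes with an entry (56.5%) and in 5.0% of tested genes, and it was not found before the start of Chordc1.

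Of 33 proteasome subunits, Psmd3 (0.38 ± 0.08, SE, limma adjusted p = 0.0169) and Psmd1 (0.41 ± 0.10, SE, limma adjusted p = 0.0413) of the regulatory particle rose (0.204% of all genes did), and 0 fell (0 at an unadjusted p under 0.05). The median was 0.14, and 17 members had all 489.2 mg/kg arrays above all 244.6 mg/kg arrays, compared with 9.76% of all genes. The 2 calls were 0 without 244.6 mg/kg replicate 1 or 2 or 489.2 mg/kg replicate 1, and 1 without 244.6 mg/kg replicate 3 or 489.2 mg/kg replicate 3. Nploc4 (0.48 ± 0.09, SE, limma adjusted p = 0.0105) and Ufd1 (0.44 ± 0.10, SE, limma adjusted p = 0.0274), a pair of cofactors that bring ubiquitinated proteins to the p97 ATPase, rose as well. They were singled out after their values were seen, and neither passed in the mean of its probe sets (0.29 for Nploc4).

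Tfrc, the transferrin receptor that takes up iron, stood at 10.72, 10.26 and 10.16 at 244.6 mg/kg and at 11.87, 10.86 and 11.74 at 489.2 mg/kg, with vehicle arrays from 10.14 to 10.85 (median 10.46). Replicate 2 of the higher dose was close to the vehicle and the other two were clear of it. Tfrc rose by 1.11 ± 0.23 (SE, 2.15-fold, limma adjusted p = 0.0123), the only one of 27 haem and iron genes to pass (1.7% of all genes passed). Cers6, a ceramide synthase, stood at 8.86, 8.87 and 8.54 against 10.06, 9.58 and 9.95, with vehicle arrays from 7.98 to 9.22 (median 8.32). The higher dose lay above every vehicle array, and the rise was 1.11 ± 0.26 (SE, limma adjusted p = 0.0250). Smaller rises were those of Slc43a1 (0.76), a transporter of large neutral amino acids, Limk2 (0.57), a kinase of the actin regulator cofilin, and Tns2 (0.60), a focal adhesion protein. Each passed, with limma adjusted p between 0.0113 and 0.0324.

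A few rises brought the level back to that of the vehicle. Prodh, which starts the breakdown of proline, stood at 9.57, 9.85 and 9.69 at 244.6 mg/kg and at 10.68, 10.00 and 10.49 at 489.2 mg/kg, with vehicle arrays from 10.32 to 10.67 (median 10.39). The lower dose lay below the vehicle, while 1 array of the higher dose did. Prodh rose by 0.69 ± 0.14 (SE, limma adjusted p = 0.0127), with another probe set at 0.02 and their mean at 0.35. Eri2, of the ERI1 exoribonuclease family, stood at 7.32, 7.22 and 7.45 against 8.79, 7.83 and 8.46, with vehicle arrays from 7.93 to 8.88 (median 8.49). It rose by 1.03 ± 0.23 (SE, limma adjusted p = 0.0214), but another probe set of the gene gave -0.16, and the mean of both did not pass (0.43). Bcat2, the mitochondrial transaminase of branched-chain amino acids, also rose (0.48 ± 0.12, SE, limma adjusted p = 0.0332), which with Prodh made 2 of 53 genes of the urea cycle and amino acid catabolism (0.204% of all genes rose).

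**Figure D4:**
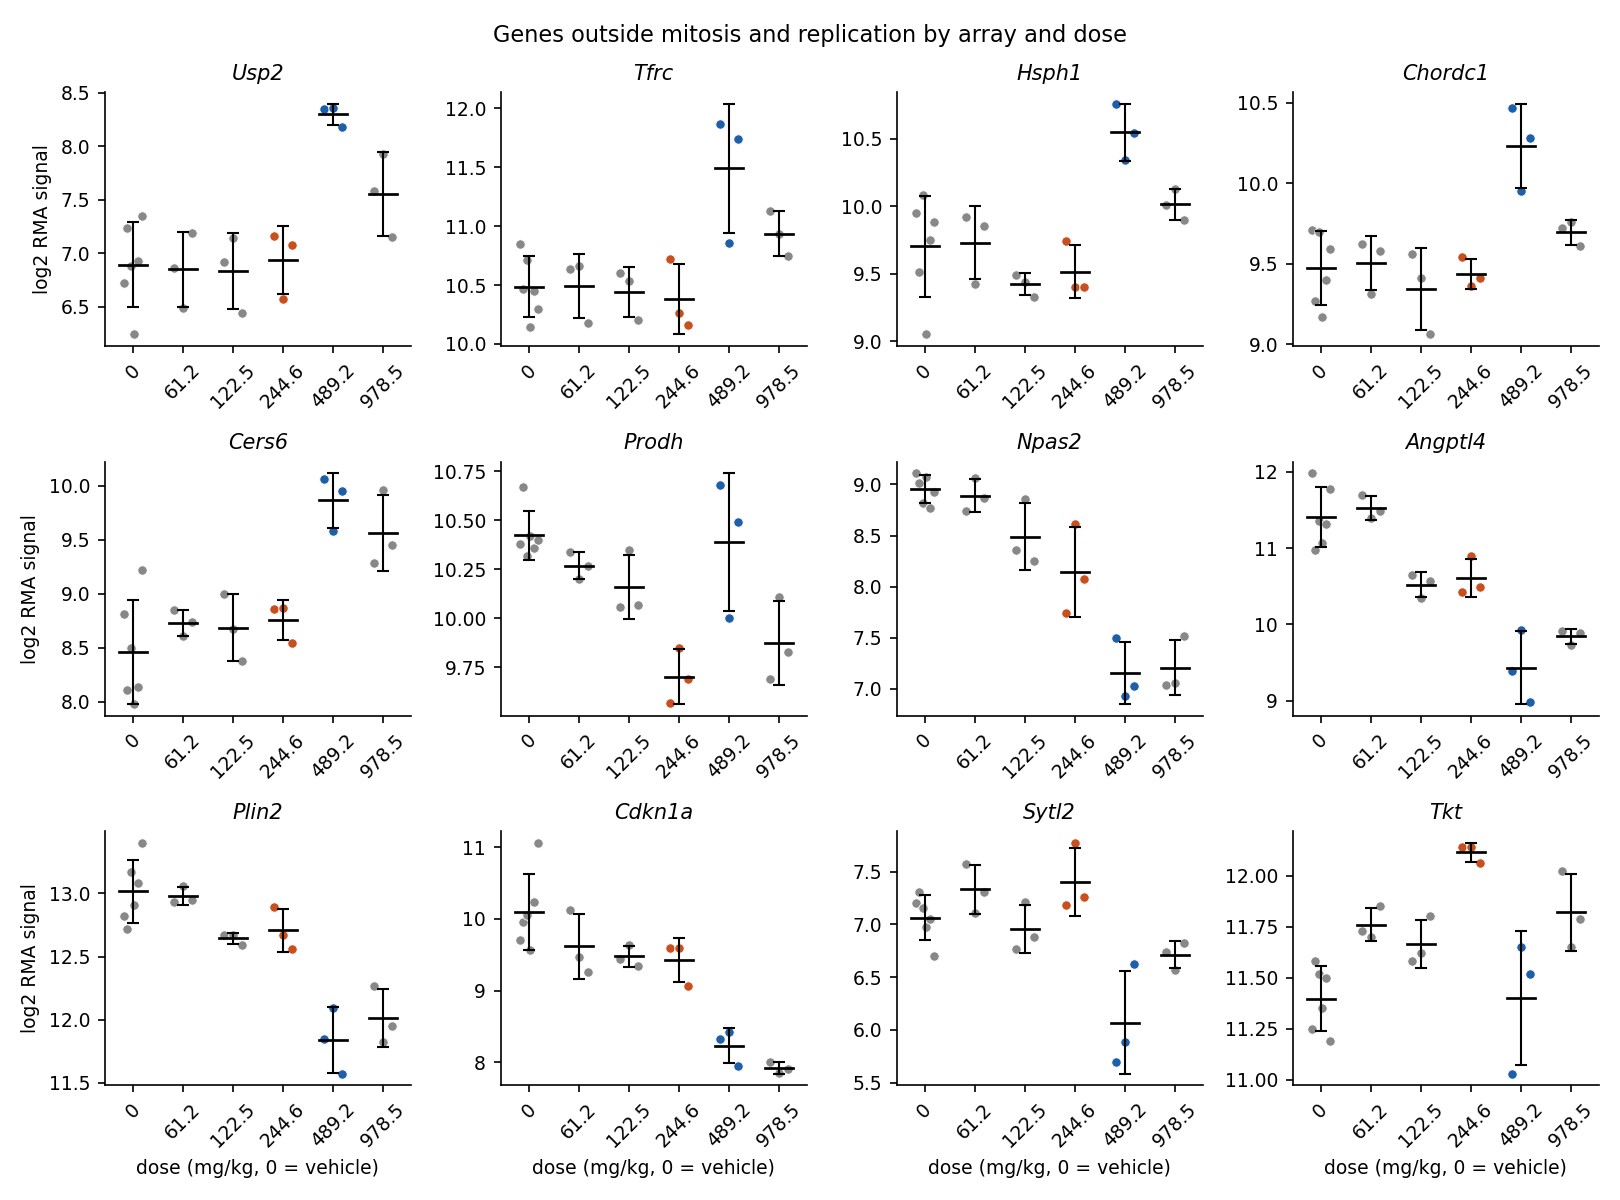
Log2 RMA signal of 12 genes outside mitosis and replication on each array at 6 doses, with points for arrays, long bars for means and whiskers for 1 SD (n = 6 vehicle arrays, 3 at each dose). Usp2, Hsph1 and Chordc1 have means at 489.2 mg/kg of 8.30, 10.55 and 10.23, above those at 978.5 mg/kg (7.55, 10.01 and 9.70), whereas Cdkn1a is lower at 978.5 mg/kg (7.92) than at 489.2 mg/kg (8.23).

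Markers of other cell types and of inflammation varied among the arrays at 489.2 mg/kg. The mean of 12 macrophage markers relative to vehicle was -1.26 on replicate 1, 0.05 on replicate 2 and 0.11 on replicate 3, and -0.78, -0.32 and -0.16 on the 244.6 mg/kg arrays. Limma called 0 of the 12, with 0 at an unadjusted p under 0.05, and their median was 0.08. Replicate 1 was also the lowest macrophage array at 61.2 mg/kg (-0.38) and 978.5 mg/kg (-0.77), but not at 122.5 mg/kg or in the vehicle. The mean of the endothelial markers was lowest on replicate 1 in every group, from -0.54 at 244.6 mg/kg to -0.31 in the vehicle. The labels give no meaning to the replicate number, and its part in these values was not tested. The mean of 32 acute phase genes was 0.21, -0.03 and 0.55 at 489.2 mg/kg and -0.14, -0.10 and 0.10 at 244.6 mg/kg. Limma called 0 of them, 12 were higher at an unadjusted p under 0.05 (4.8% of all genes), and the median was 0.23. The 40 interferon and antigen presentation genes had means of -0.41, 0.39 and -0.31 at the higher dose, and 0 were called (2 higher and 3 lower at an unadjusted p under 0.05). Replicate 2, the array with the highest mitosis mean at that dose, thus also had the lowest acute phase and the highest interferon mean. The part of these differences in the results above was not tested.

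Of the 20 stellate cell and fibroblast markers limma called 0, with 5 lower at an unadjusted p under 0.05 (6.79% of all genes) and a median of -0.16. Their mean was -0.70, -0.12 and -0.27 at 489.2 mg/kg against -0.24, -0.16 and -0.06. The 15 hepatocyte markers had a median of 0.03 and 0 calls (2 higher and 2 lower at an unadjusted p under 0.05). The 35 cytosolic ribosome genes had a median of -0.14 and 0 calls. Of these, 9 were lower (6.79% of all genes) and 0 higher at an unadjusted p under 0.05. In 16 of them the higher dose lay wholly below the lower (9.14% of all genes), and in 0 wholly above.

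**Figure D5:**
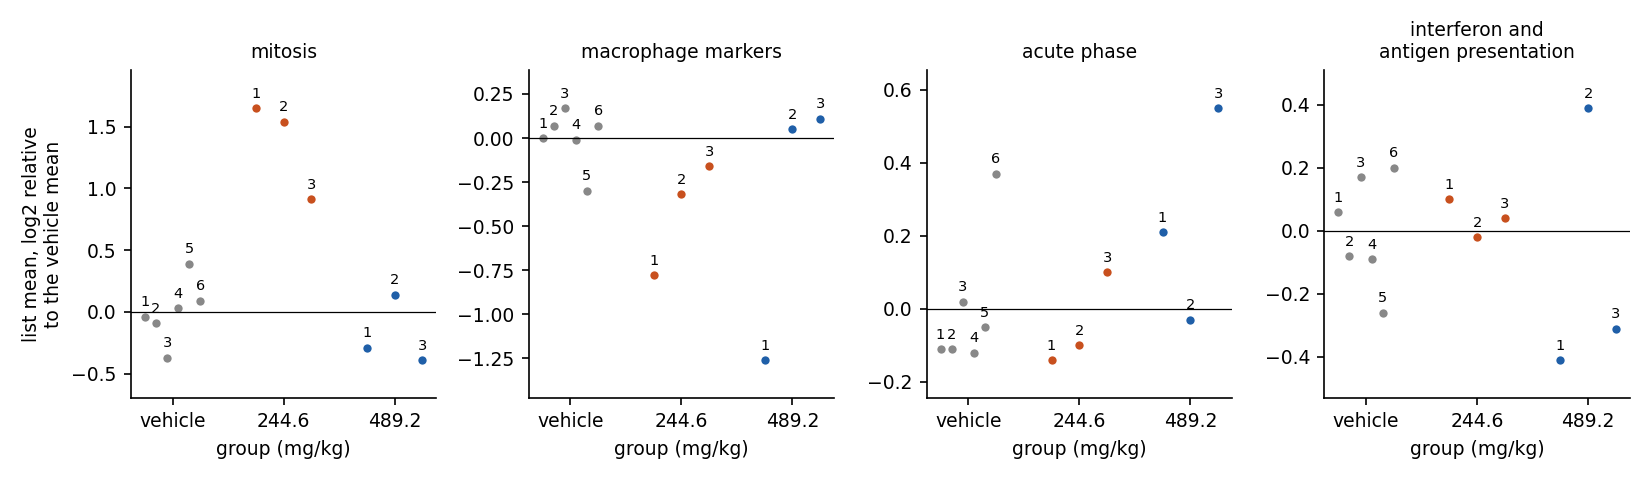
Mean of a list's genes relative to the vehicle mean (log2) on each array, labelled by replicate number, for 4 lists and 3 groups. The mitosis list separates the doses (0.91 to 1.65 against -0.39 to 0.14), whereas in the macrophage list replicate 1 at 489.2 mg/kg stands apart at -1.26. Replicate 1 is also the lowest macrophage array at 244.6 mg/kg (-0.78).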

How the data were processed

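Affymetrix 1-colour arrays of rat liver RNA gave the data. The authors deposited log2 signals, which come from RMA per the submitters' processing notes; its version is not given in the sources used here. Of 31099 probe sets, 20832 had 1 gene symbol in the platform annotation, 436 had several and 9831 had none. Each of 14218 genes was taken from its probe set with the highest mean. RMA compresses differences at low signal, and array number limits the precision (3 per dose). limma 3.58.1 in R 4.3.3 was fitted with 1 mean per group over all 21 arrays (15 residual degrees of freedom), with eBayes and Benjamini-Hochberg adjustment over all genes. On simulated data with 100 genes changed per size, the fit recovered 74% of 1.5-fold and 94% of 2-fold changes between both doses, with 5 false calls. Genes were simulated independently in a single run, without the variation that genes share on an array, so these figures may not hold for the real arrays.

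The protocol describes separate rats, so the spread is between animals. The comparison and its 42 gene lists, 1236 of whose 1433 entries were matched, were chosen with earlier results of these data known. Named genes were those of non-overlapping calls with the 15 widest rises and 15 widest falls outside the mitosis and replication lists, the 6 widest in each direction within them, the 10 smallest p, up to 4 members of each list and 18 preset genes. Figures were drawn with matplotlib 3.10.9. Promoters came from RefSeq (GRCr8). Alternatives covered probe sets, low signals, variance model, array weights, scaling, fold threshold, pairing, the arrays fitted and each array left out.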

Additional observations from a re-analysis of the deposited data

Results flagged for a closer look

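Within the 6 vehicle arrays, 33 sets of values (25 genes and 8 list means of the report) were examined for 1 array far from the rest, a check that chance meets in about 1 group in 20. In Prodh, vehicle replicate 2 stood at 10.67, whereas the other vehicle arrays lay between 10.32 and 10.42. In the acute phase list, vehicle replicate 6 had a mean of 0.37 relative to the vehicle mean, whereas the others lay between -0.12 and 0.02. Neither array enters the difference between 489.2 and 244.6 mg/kg other than through the shared estimate of the spread.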

How the results depend on the processing

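The count of 242 genes was 93 among genes above the median level, 94 at a fold of at least 2 (chosen after seeing the data) and 99 with only the arrays of both doses in the fit. It ran from 41 to 339 with each array of both doses left out in turn, and from 173 to 318 in the other alternatives. Leaving out vehicle replicate 6, also chosen after seeing the data, gave 263. For 244.6 mg/kg against the vehicle the count of 420 became 250 above the median level, 766 with array weights and 209 at 1.5-fold or more, and 112 to 437 with 1 array left out. For 489.2 mg/kg against the vehicle the count of 412 became 173 at 1.5-fold or more and 160 with only the arrays compared, and 157 to 514 with 1 array left out. For the difference between both dose steps the count of 132 became 85 over every probe set, 28 above the median level, 72 with array weights, 7 with low signals raised to the 20th percentile and 0 with only the arrays compared, and 3 to 325 with 1 array left out. Fits on only the arrays compared have fewer residual degrees of freedom; the cause of the other changes was not tested. None of the 64 followed genes that passed changed sign in any alternative. With 1 array of either dose left out they could not, since their arrays did not overlap between the doses. Without 489.2 mg/kg replicate 3, A2m went from 0.78 to -0.18, Lcn2 from 1.02 to -0.62, Cyp4a1 from -0.40 to 0.15 and Cyp3a9 from -0.02 to 0.71, and Cyp3a9 had 0.33 without 244.6 mg/kg replicate 2; these genes did not pass. Of 64 genes that passed and were followed through up to 16 alternatives each, 10 passed in each one in which they were tested (Cks2, Espl1, Fam111a, Mad2l1, Mdm1, Pttg1, Shcbp1, Spdl1, Tbc1d31 and Trim59), and 54 missed the threshold in at least 1. Of 140 followed genes that did not pass, 26 passed in at least 1. Same-numbered arrays of both doses correlated in their deviations at 0.22, 0.03 and 0.17, and differently numbered ones between -0.21 and 0.04. The labels do not say that the numbers pair the rats, and the main fit did not use them. A replicate block gave 257 genes, 214 of them among the 242. Mcm6, Rbl1, Olr59, Psmd1 and Tns2 were among the genes that did not pass with it. Signals near background, disagreeing probe sets (12 of the 61 passing genes with several had one of opposite sign) and 3 rats per dose limit the differences.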

Other observations

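Several smaller falls between 244.6 and 489.2 mg/kg lay in genes of glycogen and plasma transport, chosen after their values were seen. Gbe1, the glycogen branching enzyme, stood at 12.71, 12.68 and 12.49 at 244.6 mg/kg and at 11.93, 12.21 and 12.07 at 489.2 mg/kg, and fell by 0.56 ± 0.09 (SE, limma adjusted p = 0.00616). Gyg1, the glycogenin that primes glycogen synthesis, stood at 9.26, 9.24 and 9.59 against 8.40, 9.07 and 8.76, and fell by 0.62 ± 0.15 (SE, limma adjusted p = 0.0303). The doses overlapped in neither gene. Serpina6, the corticosteroid-binding globulin of plasma, stood at 12.95, 12.92 and 13.14 against 11.27, 12.66 and 12.31, with replicate 1 the lowest array. It fell by 0.92 ± 0.21 (SE, limma adjusted p = 0.0207), and by 0.52 without that array (limma adjusted p = 0.0384). Serpina6 did not pass in 5 of 16 alternatives, among them each fit without 1 of the 244.6 mg/kg arrays.

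Some transcripts varied more among the 489.2 mg/kg arrays than between the doses; these too were singled out after their values were seen. Lcn2, an iron-scavenging acute phase protein, stood at 8.79, 6.73 and 12.70 at 489.2 mg/kg and at 7.17, 7.63 and 10.33 at 244.6 mg/kg. A2m, a protease inhibitor of the rat acute phase, stood at 10.60, 9.28 and 12.82 against 9.79, 9.31 and 11.26. In both genes replicate 3 was the highest array of each dose. The neutrophil gene S100a8 stood at 4.97, 4.59 and 8.02 against 4.53, 4.75 and 4.71, so replicate 3 of the higher dose stood apart. Egr1, an immediate early gene, stood at 6.19, 8.71 and 6.13 against 8.95, 7.48 and 9.89, with replicate 2 the highest at 489.2 mg/kg. None of these 4 genes passed the test between the doses.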
